A study of Mus musculus with 6 samples.

Results

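Donor CD8+ T cells from the BM carried transcripts of receptors, a kinase and both removing enzymes of the sphingosine-1-phosphate (S1P) system in all 6 libraries, while the kinase gene Sphk1 was at 0 in 3 of them. The genes described here are 10 of the 14051 listed in the deposited table, chosen by name for their roles: the receptors S1pr1, S1pr4 and S1pr5, the kinases Sphk1 and Sphk2 that make S1P, the enzymes Sgpl1 and Sgpp1 that remove it, and Gnai2, Gnai3 and Grk2, which act directly downstream of the receptors. All 10 were found and all 10 passed the filter on low values. None passed an adjusted p under 0.05 between the groups, where 0% of the 11649 tested genes did. S1pr1 had the smallest p of the 10 and a lower mean in the GC-treated group, S1pr5 had the largest difference in the opposite direction, and Sphk2, Sgpl1, Sgpp1, Gnai2 and Gnai3 had log2 fold changes between -0.18 and 0.03 whose intervals all include 0.

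Irradiated B6D2F1 mice were grafted with CD3+ T cells purified from B6.CD45.1+ mice and were injected with dexamethasone, a synthetic glucocorticoid (GC), at 5 mg/kg/day or its vehicle, methyl β-cyclodextrin, from day -1 to day 5. On day 5 an anti-CD45 antibody was injected into the blood shortly before death, so that cells inside vessels were marked, and donor CD8+ T cells that bore the mark were taken by sorting from BM that pooled 2 to 3 mice per biological group. The 3 libraries labelled GC-treated and the 3 labelled vehicle-treated (named 1 to 3 in each group) share irradiation, graft, strain and sort, and differ by label in the injected agent. Whether separate pools of mice stand behind the libraries is not stated, so p-values measure the spread between these samples, which may be technical.

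S1P is a lipid signal that is high in blood and lymph and low inside tissues. T cells read this difference through S1PR1, which couples to inhibitory G proteins and directs cells out of lymphoid organs and BM, and GRK2 phosphorylates and helps to internalise the receptor where S1P is high. Inside cells, sphingosine kinases phosphorylate sphingosine to S1P, the phosphatase SGPP1 reverses that step and the lyase SGPL1 breaks S1P down for good.

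Depth ran from 67887570 to 76888118 recovered reads in the GC-treated group and from 60949593 to 64801008 in the vehicle-treated group, without overlap. Counting noise was exceeded in all 15 comparisons of a library with another. The label of CD8+ T cells was borne out by Cd8a against Cd4. Cd8a had mean normalized counts of 85126 in the GC-treated and 73651 in the vehicle-treated group, and Cd4 had 119 and 138. Of 11 CD8 T cell markers, 10 were listed and none was at 0, but several, such as Cd3e and Lck, are shared with CD4 T cells. Together the 10 took 0.603% to 0.732% of reads in the GC-treated group and 0.606% to 0.646% in the vehicle-treated group. The 7 CD4 T cell markers, of which 0 had a higher mean in the GC-treated group, took 0.0164% to 0.0169% there and 0.0172% to 0.0213% in the vehicle-treated group. Icos led this sum with Ctla4 next, and activated CD8+ T cells express both. Cd4 itself overlapped between the groups, with normalized counts of 106, 86.3 and 164 against 97.1, 138 and 178. In 2 of the 7 the groups did not overlap, with GC-treated lower, as in 6.40% of all tested genes. The part of the CD4 T cell markers in the values below was not tested. Among 7 tested GC target genes, Dusp1, a phosphatase of MAP kinases, had a higher mean in the GC-treated group (log2 fold change 0.47, unadjusted p = 0.016 and adjusted p = 0.62 in limma), whereas Fkbp5, a chaperone partner that GCs usually induce, was lower in every GC-treated library (-0.59, unadjusted p = 0.0081 and adjusted p = 0.62 in limma) and the other 5 had negative fold changes. Directions below are therefore those of the labels alone. GC-treated 1 lay with the vehicle-treated libraries for S1pr5 and Grk2, so leaving it out widens those differences by construction, and values without it are given as a description beside those without each other library.

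The promoters of the receptor genes are shown first, because S1pr4 and S1pr5 differed in the sign of their fold change and KLF2, which drives S1pr1 in T cells, binds a CACCC box. A table of RefSeq promoters held 7 of the 10 genes, all but S1pr1, Gnai2 and Grk2. Each stretch runs from 250 bases before the start site to 50 bases after it on the minus strand, and the capitals mark CACCC or its reverse complement GGGTG. Each matched GRCm39 at 1 place, S1pr4 at chr10:81335922-81336221 and S1pr5 at chr9:21159690-21159989.
S1pr4: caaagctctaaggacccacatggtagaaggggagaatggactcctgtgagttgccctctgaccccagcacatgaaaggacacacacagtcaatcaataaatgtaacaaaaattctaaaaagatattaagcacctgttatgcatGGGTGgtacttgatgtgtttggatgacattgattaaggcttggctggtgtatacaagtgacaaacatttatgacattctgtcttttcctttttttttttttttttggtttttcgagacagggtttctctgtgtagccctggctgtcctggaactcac
S1pr5: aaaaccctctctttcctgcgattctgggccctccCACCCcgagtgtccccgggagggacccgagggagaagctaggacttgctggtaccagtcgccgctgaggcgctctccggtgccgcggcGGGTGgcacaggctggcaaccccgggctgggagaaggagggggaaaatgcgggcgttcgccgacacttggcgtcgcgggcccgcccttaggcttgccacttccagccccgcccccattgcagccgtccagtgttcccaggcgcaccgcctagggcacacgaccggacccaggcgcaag

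The S1pr5 stretch was GC-rich, with 69.3% G or C against a median of 52.7% over 32851 promoters in the table, and that of S1pr4 held 41%. S1pr4 had 1 match to the CACCC box, beginning 107 bases before the start site. S1pr5 had 2, beginning 216 and 128 bases before it. Of all promoters of this length, 57.5% held the box on either strand. The half-site that the GC receptor binds, searched as AGAACA and on the other strand as TGTTCT, was in 19.0% of all promoters and had no match in either stretch, which says only that these letters are not in these windows. With no half-site present, the marked letters are those of the CACCC box alone.

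Receptor levels differed widely. In levels per exon length, which sum to 1000000 in each library, S1pr1 had a mean of 132, S1pr4 of 100 and S1pr5 of 2.30 over the 6 libraries. S1pr1 was above S1pr4 in 6 of 6 libraries, by a ratio of at least 1.10 in this per-length level. S1pr2, a receptor that couples to other G proteins and is not among the 10, had a level of 13.5, between S1pr4 and S1pr5, and S1pr3 was at 0 in 5 libraries.

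**Figure D1:**
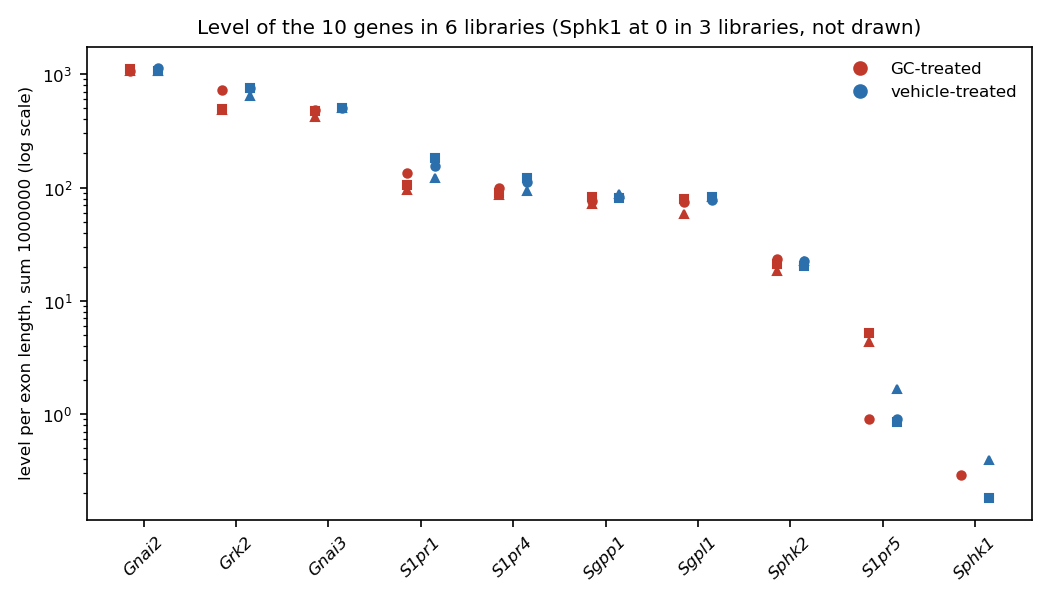
Level of the 10 genes per exon length, on a scale that sums to 1000000 in each library (log axis), in each library, GC-treated in red and vehicle-treated in blue, with the symbol shape giving the library's number. Gnai2 was highest (mean 1091) and Sphk1 lowest (mean 0.144), and only S1pr5, Sphk1 and to a lesser degree Grk2 and S1pr1 show visible spread.

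S1pr1 (chr3:115504071-115508721, minus strand, GRCm39), the egress receptor, gave normalized counts (reads divided by the size factor of the library) of 7735, 6228 and 5882 for the GC-treated libraries 1 to 3 and 9050, 10510 and 7096 for the vehicle-treated libraries 1 to 3. The groups overlapped, because GC-treated 1 lay above vehicle-treated 3, while the other GC-treated libraries lay below all vehicle-treated libraries. The means were 6615 ± 985 and 8885 ± 1713 (SD, n = 3 each). The log2 fold change was -0.42 ± 0.16 (SE), with a 95% interval of -0.77 to -0.06, an unadjusted p of 0.025 and an adjusted p of 0.62 in limma. S1pr1 was the only 1 of the 10 genes at an unadjusted p under 0.05, where 7.19% of all tested genes were. Without GC-treated 1 the log2 fold change was -0.54 with an adjusted p of 0.13 in limma, and without any 1 of the other libraries the adjusted p was 0.67 to 0.92. Endothelial cells also carry S1PR1: their 9 listed markers took 0.00421% to 0.00492% of reads in the GC-treated group and 0.00460% to 0.00500% in the vehicle-treated group, 3 of them with a higher mean in the GC-treated group. Pecam1, the most abundant of them, made up most of this sum, with 2628 to 3142 reads in a library against 140 to 338 for Egfl7, the next. Pecam1, which T cells also express, had a lower mean in the GC-treated group. The defining markers Cdh5, Kdr, Emcn, Vwf and Cldn5 were each at 0 in at least 1 library. Their highest values were 8, 20, 8, 76 (vehicle-treated 3) and 7 reads, against 6276 to 9722 reads of S1pr1 in a library. The part of endothelial cells in the S1pr1 values was not tested. In bulk RNA, fewer cells of a kind and less RNA per cell cannot be told apart.

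S1pr4 (chr10:81333581-81335966, minus strand), a receptor of lymphoid cells, took nearly the same order of libraries as S1pr1. Its normalized counts were 3341, 3049 and 3086 in the GC-treated libraries and 3773, 4051 and 3184 in the vehicle-treated libraries. The 2 highest were again vehicle-treated 2 and 1, and vehicle-treated 3 again fell between GC-treated 1 and the rest. The log2 fold change of -0.21 ± 0.11 had an adjusted p of 0.62 in limma and a 95% interval of -0.47 to 0.05.

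S1pr5 (chr9:21154208-21159746, minus strand), which NK cells and effector T cells use to leave tissues, was higher in 2 of 3 GC-treated libraries than in any vehicle-treated library. It had normalized counts of 43.3, 249 and 218 in the GC-treated libraries, from 50, 251 and 237 reads, and of 43.6, 40.0 and 80.3 in the vehicle-treated libraries, from 40, 37 and 77 reads. GC-treated 1 thus lay among the vehicle-treated libraries and the other GC-treated libraries well above them. The means were 170 ± 111 and 54.7 ± 22.3 (SD, n = 3 each), and the log2 fold change of 1.34 ± 0.64 had an adjusted p of 0.62 in limma and a 95% interval of -0.11 to 2.80. Without GC-treated 1 the log2 fold change was 2.14 with an adjusted p of 0.066 in limma, and without any 1 of the other libraries the adjusted p was 0.69 to 0.92. In the fit without GC-treated 1, 3 of the 9 members tested (S1pr1, S1pr5 and Grk2) were at an unadjusted p under 0.05 in limma, where 20.7% of all tested genes were, and 45 genes, none of them a member, passed the adjusted threshold.

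**Figure D2:**
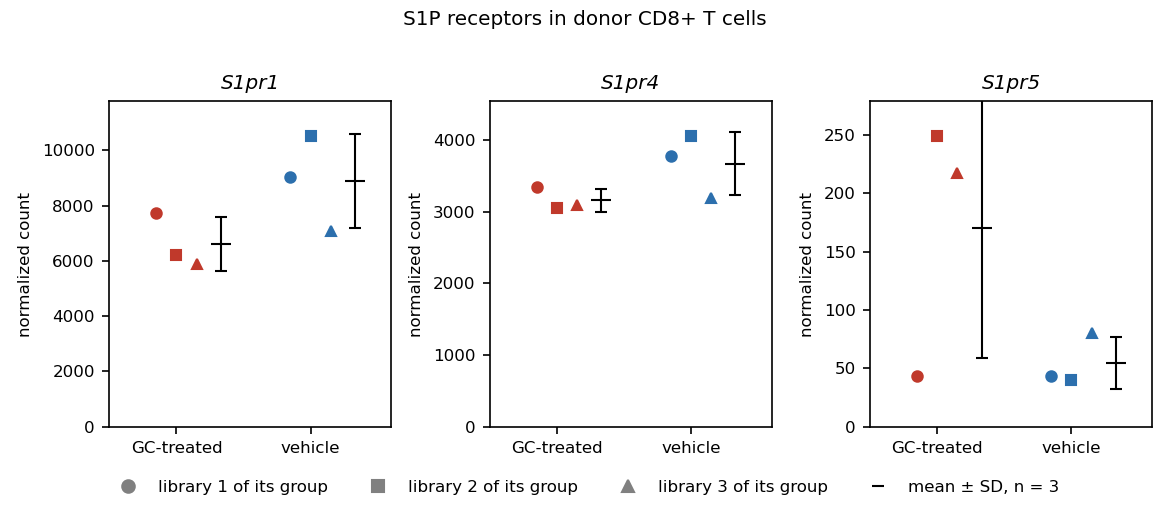
Normalized count (linear axis from 0) of S1pr1, S1pr4 and S1pr5 in the 3 GC-treated and 3 vehicle-treated libraries, with the mean and SD of each group (n = 3). S1pr1 was lower on average in GC-treated libraries (6615 against 8885) with overlap, and S1pr5 was high in GC-treated 2 and 3 alone (249 and 218).

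Some other measures followed the same libraries as S1pr5. The 10 listed neutrophil markers, of which 8 had a higher mean in the GC-treated group, took 0.00276%, 0.0189% and 0.0133% of reads in GC-treated 1 to 3 and 0.00118%, 0.000712% and 0.00636% in vehicle-treated 1 to 3. Ltf led the neutrophil list, and Ltf, Mmp8 and Retnlg were each at 0 in at least 1 library. NK cell markers, another S1pr5-expressing lineage, took 0.189%, 0.265% and 0.243% in the GC-treated libraries and 0.207%, 0.170% and 0.219% in the vehicle-treated libraries, led by Gzma, which effector CD8+ T cells also express. The NK receptor gene Ncr1 had normalized counts of 13.9, 38.7 and 31.2 in the GC-treated libraries and 18.5, 22.7 and 14.6 in the vehicle-treated libraries. Klrb1c, another of the NK markers, did not follow S1pr5, with 97.0, 114 and 26.7 against 103, 108 and 80.3, and was lowest in GC-treated 3. Of the 7 NK markers listed, 4 had a higher mean in the GC-treated group and Klrb1b was at 0 in 3 libraries. Mitochondrial transcripts took 0.902%, 0.400% and 0.615% of reads in the GC-treated libraries and 0.910%, 1.13% and 0.757% in the vehicle-treated libraries, so that GC-treated 2 and 3, the highest in S1pr5, were the lowest in mitochondrial reads and in S1pr1. The part of these in the receptor values was not tested.

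The shares of S1pr1, S1pr4 and S1pr5 in their sum overlapped between the groups. S1pr2, with a mean level of 13.5, is outside this sum. By per-length level, S1pr1 made up 57.0%, 52.7% and 51.2% of the sum of S1pr1, S1pr4 and S1pr5 in the GC-treated libraries and 57.9%, 59.8% and 55.8% in the vehicle-treated libraries. S1pr5 made up 0.390%, 2.58% and 2.32% and then 0.341%, 0.278% and 0.773%. The means of the S1pr1 share were 53.6 ± 3.0% and 57.8 ± 2.0% (SD, n = 3 each), and GC-treated 1 lay above vehicle-treated 3.

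The kinases split into an expressed and a nearly silent gene. Sphk2 (chr7:45358891-45367426, minus strand), the nuclear and mitochondrial sphingosine kinase, had normalized counts of 2466, 2271 and 2057 in GC-treated libraries and 2377, 2096 and 2383 in vehicle-treated libraries. The group means differed by under 1% and the log2 fold change was -0.01 ± 0.11, with a 95% interval of -0.27 to 0.24. Sphk1 (chr11:116421751-116427501, plus strand), the cytoplasmic kinase that growth signals induce, had 26, 0 and 0 reads in the GC-treated libraries and 0, 13 and 30 reads in the vehicle-treated libraries. Its mean per-length level was 0.144 against 21.4 for Sphk2, and its log2 fold change (-1.46 ± 1.85) depends on the pseudocount. At these few reads a difference in Sphk1 was not detectable.

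The enzymes that remove S1P had overlapping groups. Sgpl1 (chr10:60934421-61011826, minus strand), the lyase, had normalized counts of 6842, 7375 and 5716 in the GC-treated libraries and of 7307, 7504 and 7670 in the vehicle-treated libraries. GC-treated 2 lay within the vehicle-treated range and GC-treated 3 was lowest. Sgpp1 (chr12:75761023-75782605, minus strand), the phosphatase, had 6101, 6806 and 6221 against 6763, 6486 and 7183, also with overlap. Their log2 fold changes were -0.18 ± 0.11 (95% interval -0.42 to 0.06, adjusted p = 0.63 in limma) and -0.10 ± 0.09 (95% interval -0.30 to 0.11, adjusted p = 0.72 in limma). Per length the pair stood side by side, at 80.2 for Sgpp1 and 75.6 for Sgpl1, and Sgpp1 was the higher in 5 of 6 libraries, so their order is within the spread.

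S1pr1 was then set against each other gene within a library, which cancels the scaling of the library. The log2 ratio of S1pr1 to S1pr4 was 1.21, 1.03 and 0.93 in the GC-treated libraries and 1.26, 1.38 and 1.16 in the vehicle-treated libraries. The ratio to Sphk2 was 1.65, 1.45 and 1.52 against 1.93, 2.33 and 1.57. In both, the GC-treated mean was lower and 1 GC-treated library lay above vehicle-treated 3.
Over the 6 ratios computed, the GC-treated minus vehicle-treated difference was -0.21 for S1pr4, -1.76 for S1pr5, -0.40 for Sphk2, -0.24 for Sgpl1, -0.32 for Sgpp1 and 1.04 for Sphk1. None of the 6 ratios separated the groups. The two-sided exact permutation p was 0.2 for S1pr4, S1pr5, Sphk2 and Sgpp1 (adjusted over the 6 ratios 0.30), 0.4 for Sgpl1 (0.48) and 0.8 for Sphk1 (0.80), in a design whose smallest possible p is 0.1. With SEs of the difference of 0.10 for S1pr4, 1.03 for S1pr5, 0.22 for Sphk2, 0.22 for Sgpl1, 0.26 for Sgpp1 and 2.12 for Sphk1, a difference between S1pr1 and these genes was not detectable, and this does not show that they differed alike.

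**Figure D3:**
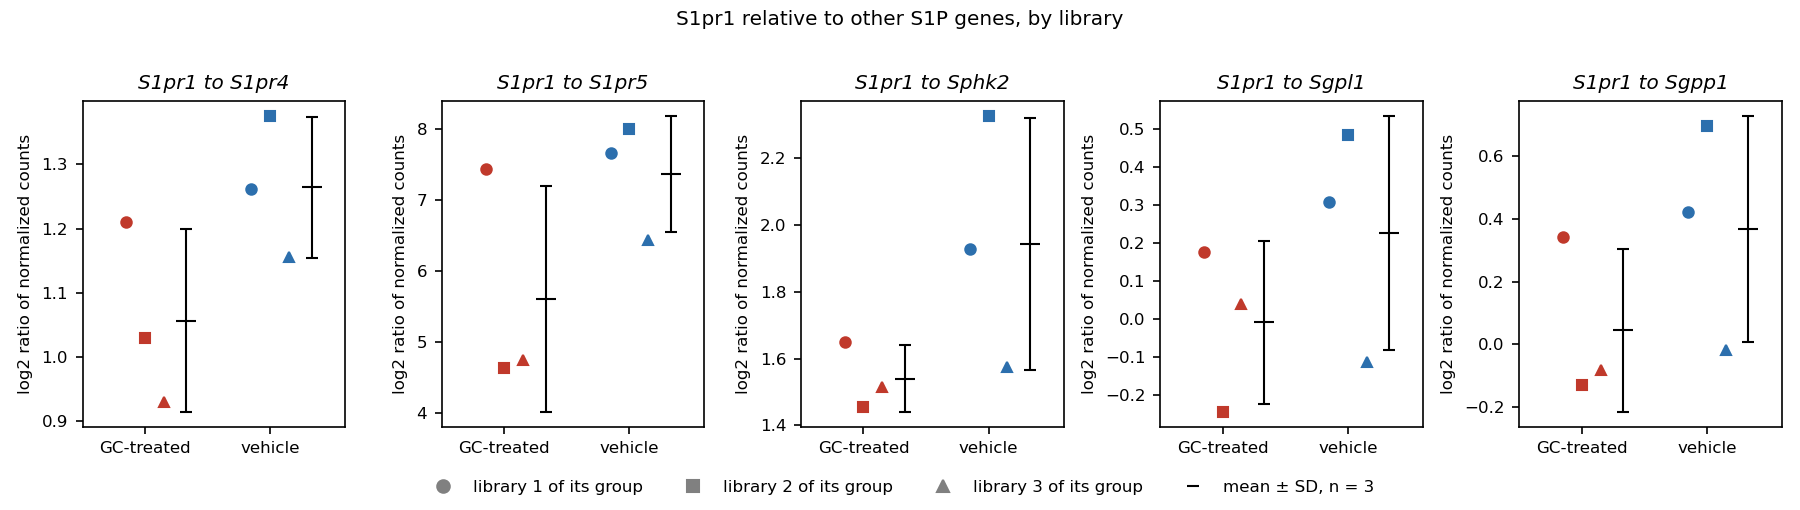
The log2 ratio of the normalized count of S1pr1 to that of S1pr4, S1pr5, Sphk2, Sgpl1 and Sgpp1 in each library, with the mean and SD of each group (n = 3, each panel with its own axis range). The GC-treated mean is lower in every panel and every panel has a GC-treated library above a vehicle-treated one.

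Among the downstream genes, Gnai2 (chr9:107491324-107512626, minus strand), the main inhibitory G protein alpha subunit of lymphocytes, was the steadiest of the 10. Its normalized counts were 65621, 69842 and 70078 in the GC-treated libraries and 69807, 65554 and 66570 in the vehicle-treated libraries, a coefficient of variation of 3.27% over the 6. The log2 fold change was 0.03 ± 0.07, with a 95% interval of -0.14 to 0.19. Gnai3 (chr3:108014590-108053469, minus strand), its close relative, had 23076, 23175 and 21722 against 24328, 24055 and 24401. It was the only 1 of the 10 genes whose groups did not overlap, and the GC-treated group was lower there, as it was in 6.40% of all tested genes that separated in that direction (12.8% in either direction). The change in the mean of Gnai3 was -6.61%, with a log2 fold change of -0.10 ± 0.07 and an adjusted p of 0.65 in limma.

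Grk2 (chr19:4336013-4356418, minus strand), the kinase that desensitises S1PR1, had normalized counts of 48424, 33284 and 34585 in the GC-treated libraries and of 50979, 49451 and 43089 in the vehicle-treated libraries. GC-treated 2 and 3 lay far below the rest and GC-treated 1 lay within the vehicle-treated range, the reverse of the pattern of S1pr5. The means were 38764 ± 8391 and 47840 ± 4185 (SD, n = 3 each). The log2 fold change was -0.32 ± 0.14, with a 95% interval of -0.64 to 0.00, an unadjusted p of 0.050 and an adjusted p of 0.62 in limma. Without GC-treated 1 it was -0.49, with an adjusted p of 0.066 in limma, and without any 1 of the other libraries the adjusted p was 0.67 to 0.92.

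**Figure D4:**
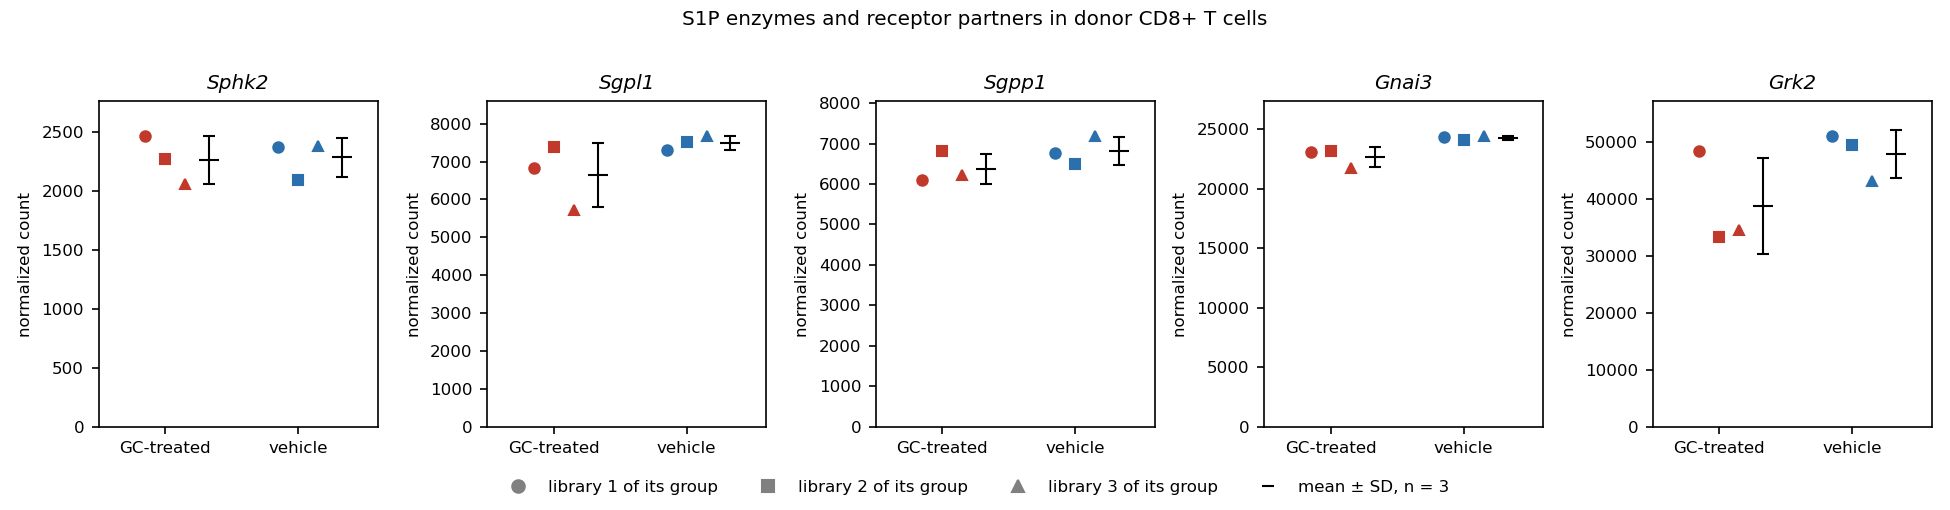
Normalized count (linear axis from 0) of Sphk2, Sgpl1, Sgpp1, Gnai3 and Grk2 in the 3 GC-treated and 3 vehicle-treated libraries, with the mean and SD of each group (n = 3). Gnai3 alone has groups that do not overlap, and Grk2 is low in GC-treated 2 and 3 (33284 and 34585).

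Of the 10 genes, 8 had negative and 2 (S1pr5 and Gnai2) positive fold changes, with a median log2 fold change of -0.14. Over all tested genes 5997 were negative and 5652 positive, with a median of -0.01. By exon length, the order of mean levels ran from Gnai2 (1091) through Grk2 (643), Gnai3 (481), S1pr1 (132), S1pr4 (100), Sgpp1 (80.2), Sgpl1 (75.6), Sphk2 (21.4) and S1pr5 (2.30) to Sphk1 (0.144). Apart from Sgpp1 and Sgpl1, each gene was above the next in 6 of 6 libraries. With the longest transcript as the length, S1pr4 ranked below Sgpp1 and Sgpl1 instead.

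**Figure D5:**
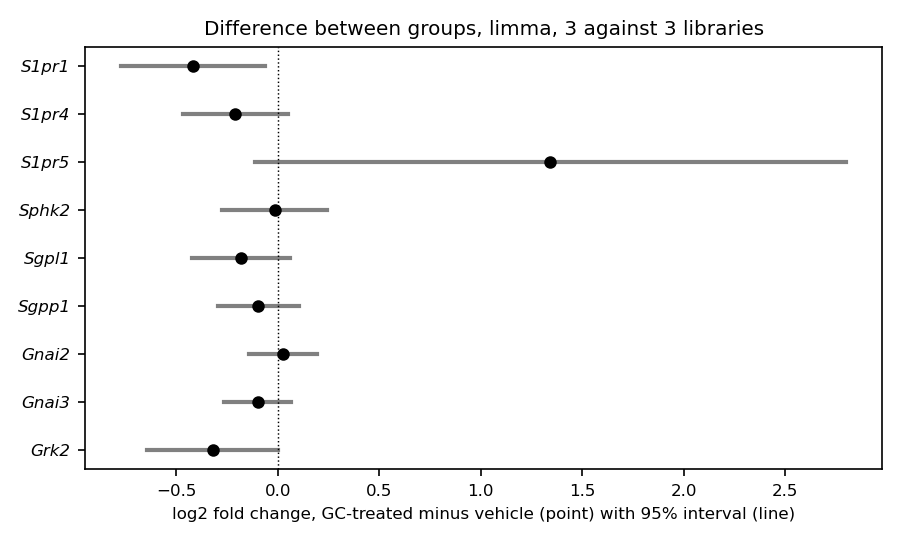
The limma log2 fold change, GC-treated minus vehicle-treated, of 9 of the 10 genes (point) with its 95% interval before adjustment (line), with Sphk1 left out because its interval runs from -5.65 to 2.73. Only the interval of S1pr1 (-0.77 to -0.06) does not cross 0, and that of S1pr5 is the widest drawn.

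Across the 6 libraries, the 3 tested genes whose log2 values ran most like S1pr1 were Agpat4, an acyltransferase of phospholipid synthesis (Pearson r = 0.990), Cep164, a centriole protein (r = 0.988), and Plek, a protein kinase C substrate (r = 0.987). For S1pr5 they were Gps1, a subunit of the COP9 signalosome (r = 0.997), Thap7 (r = 0.995) and Tmed2, a cargo carrier of early secretion (r = 0.989). With 6 points that share depth and composition, 92 of 11648 genes reached r over 0.95 with S1pr1 and 145 with S1pr5, so that these names are a description alone.

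No other gene of the pathway lists passed adjustment. Of 7 other receptors and carriers, 5 were tested and all 5 had negative fold changes, with 1 at an unadjusted p under 0.05, where 5.07% of all genes were in this direction. It was Abcc1, an exporter that can carry S1P out of cells, with normalized counts of 3112, 2577 and 2349 in the GC-treated libraries and 3430, 3232 and 3594 in the vehicle-treated libraries (log2 fold change -0.36, unadjusted p = 0.017 and adjusted p = 0.62 in limma). All 3 GC-treated values of Abcc1 were below all vehicle-treated values. Among the other tested carriers, Spns2 had at most 16 reads in a library and Mfsd2b at most 48, so their signs rest on few reads. The 3 tested phosphatases outside the 10 genes all had negative fold changes, none at an unadjusted p under 0.05, and Sgpp2 among them had only 0 to 85 reads in a library. S1pr2 had 1494 to 2173 in GC-treated libraries and 1575 to 2565 in vehicle-treated libraries, with overlap. Of 25 tested genes of sphingosine and ceramide metabolism, 17 had positive and 8 negative fold changes, none at an unadjusted p under 0.05, and the median log2 fold change was 0.03.

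The other lipid kinases leaned in 1 direction. Of 21 tested phosphoinositide, diacylglycerol and related kinase genes, 20 had negative fold changes, with a median log2 fold change of -0.28 against -0.01 over all genes, and 5 were at an unadjusted p under 0.05, all lower, where 5.07% of all tested genes were in this direction. The 3 with the smallest p were Pi4kb, which makes phosphatidylinositol 4-phosphate at the Golgi (log2 fold change -0.58), Pik3r5, a regulatory subunit of the G protein-activated PI3-kinase (-0.42), and Dgkh, a diacylglycerol kinase (-0.42), with an adjusted p of 0.62 for each in limma. Pi4kb had 1086, 770 and 778 in the GC-treated libraries against 1163, 1265 and 1477. Pik3r5 had 13296, 12119 and 9114 against 15849, 16998 and 12941, with GC-treated 1 above vehicle-treated 3 as for S1pr1. No list contained a gene past the adjusted threshold.

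Genes around the receptor were mixed. Of 26 tested G protein subunit and desensitization genes, 16 had positive and 10 negative fold changes, none at an unadjusted p under 0.05. Of 16 tested regulators of the receptors and of egress or retention, 13 had negative fold changes, 4 of them at an unadjusted p under 0.05 (5.07% of all tested genes were in this direction), and 1 of the 3 positive ones was (2.12%), with none past adjustment. Klf2, the transcription factor that drives S1pr1, had normalized counts of 5626, 4012 and 4296 in the GC-treated libraries and 6231, 9648 and 5601 in the vehicle-treated libraries (log2 fold change -0.60, unadjusted p = 0.017 and adjusted p = 0.62 in limma). Its highest library was vehicle-treated 2 and its lowest GC-treated 2, and GC-treated 1 again lay just above vehicle-treated 3, as for S1pr1. Il7r, the IL-7 receptor, had 1147, 1058 and 888 against 2216, 2893 and 1493, which did not overlap, and Cxcr4, the BM retention receptor, had 577, 259 and 379 against 633, 1307 and 550, which did. Cd69, whose protein binds S1PR1 and draws it from the surface, had 6778, 8113 and 7514 against 6506, 5667 and 6515, and was higher in all GC-treated libraries (log2 fold change 0.26, unadjusted p = 0.031 and adjusted p = 0.62 in limma). Gpr183, an oxysterol receptor of positioning, had a log2 fold change of -0.51. Both Cd69 and Gpr183 were named after their values were seen.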

How the data were processed

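RNA of 6 libraries of sorted donor CD8+ T cells was amplified by the SMART v4 protocol, which does not mark strand. The authors aligned reads with STAR to GRCm39, counted them per gene and ran DESeq2, per the labels and the methods, which name no versions. The authors deposited a normalized signal: reads per gene over 1 size factor per library. All values (100%) lay within 0.001 of a whole read, so reads were recovered. Groups came from the labels alone. The main test was limma 3.58.1 with a mean-variance trend on log2(normalized count + 1) in R 4.3.3, over the 11649 genes that reached 10 in 3 or more libraries, with p-values adjusted by Benjamini-Hochberg over all of them and a threshold of 0.05. Fold changes are GC-treated minus vehicle-treated in these log2 units, where the pseudocount of 1 shapes the values of low genes. Ratios were compared by exact permutation tests (scipy 1.17.1). Levels per length are normalized counts divided by merged exon length and scaled to a sum of 1000000. The limma, edgeR and DESeq2 fits were tested on simulated reads, and the permutation test on small sets with a known answer. As alternatives edgeR 4.0.16, DESeq2 1.42.0, limma-voom, other scaling, pseudocounts and filters, the replicate number as a block and the leaving out of each library were run.

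The 10 genes and all gene lists were chosen with earlier results of these data known. Named genes were the 10, up to 3 genes with the smallest p of each other list, the leading gene of lists of other cell types and those at 0, and the 3 genes most like S1pr1 and S1pr5. Positions are from Gencode on GRCm39, in which 13707 of the 14051 symbols matched once. Without strand, reads of overlapping genes cannot be told apart, which concerns S1pr1 (with Gm9889), S1pr5 (Gm48303), Sphk1 (Sphkos), Sphk2 (Dbp and Rpl18), Sgpl1 (Tbata), Gnai2 (Gm68686) and Gnai3 (Gm56785). Promoter sequences are from RefSeq (table on GRCm38.p6) and were placed on GRCm39 by exact match. One list of markers of another cell type is not reported here.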

Additional observations from a re-analysis of the deposited data

How the results depend on the processing

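No member gene passed an adjusted p under 0.05 in any of the 17 alternatives, among them edgeR, DESeq2 and limma-voom, and the smallest adjusted p, 0.066 for S1pr5 and Grk2, came without GC-treated 1, which lay opposite to their group differences. At an unadjusted p under 0.05 the members numbered 1 in limma, 2 in edgeR and 3 in DESeq2, where 7.19%, 6.08% and 7.04% of all tested genes were. S1pr1 was no longer under it in limma without a trend and without GC-treated 2, GC-treated 3, vehicle-treated 1 or vehicle-treated 2, where the members numbered 0, or 1 (Sgpl1) without GC-treated 2. Leaving out each library in turn moved the log2 fold change of S1pr1 from -0.57 to -0.29, that of S1pr5 from 0.89 to 2.14 and that of Grk2 from -0.49 to -0.22, and for Sphk2 it ranged from -0.078 to 0.053, positive without GC-treated replicate 3 (0.053), vehicle-treated replicate 1 (0.02) or vehicle-treated replicate 3 (0.02). The S1pr1 to Sphk1 ratio ranged from -0.13 (without vehicle-treated replicate 3) to 2.55, and the cause was not tested, while the other 5 ratios kept their sign in all 9 alternatives. With the longest transcript as the length the S1pr1 share was 57.0% and 61.1%. Sphk1, at 0 in 3 libraries, had a value in 13 alternatives only. Same-numbered libraries correlated at 0.06, -0.14 and 0.13, within the range of the other pairs (-0.25 to 0.22). Pairing by number was thus not seen, but so few libraries cannot exclude it. The replicate block called 0 member genes. With it, 3 members (S1pr1, S1pr5 and Grk2) were at an unadjusted p under 0.05 in limma, where 8.44% of all tested genes were. Depth limits Sphk1, with at most 30 reads in a library, whereas for S1pr5, with 37 to 251 reads, the interval holds the spread between libraries.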
